A study of Mus musculus with 2 samples.

Results

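Glucocorticoid genes of cultured mouse mast cells were compared between 2 Agilent one-colour arrays. They comprise 8 genes, chosen by name: Hsd11b2 and Hsd11b1, which inactivate and reactivate the hormone, Nr3c1, the glucocorticoid receptor, and the responders Fkbp5, Tsc22d3, Per1, Sgk1 and Zbtb16. The group was assembled around the low value of Hsd11b2 on these same arrays, so that value is a description. The 8 genes are 8 of 34732 gene names on the array and have 10 of its 55659 probes, and all 10 probes were well above background on both arrays. One array measured RNA of cells transfected with GATA1 siRNA and the other RNA of cells transfected with control siRNA, each siRNA at 200 pmol. All cells were C57BL/6 bone marrow-derived mast cells, grown for 2 weeks with interleukin 3 and for a further 2 weeks with interleukin 3 and stem cell factor (10 ng/mL each), in medium with fetal bovine serum. No added glucocorticoid is listed for either group. Each array pooled samples of 2 animals, the model is a siRNA transfection of mast cells rather than a deletion, and the time from transfection to harvest is not given in the sources used here.

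Glucocorticoids such as corticosterone cross the cell membrane and bind the receptor, which chaperones hold in the cytoplasm until then. The bound receptor enters the nucleus and switches genes on at palindromic response elements, or dampens inflammatory genes. Before that, 11-beta-hydroxysteroid dehydrogenases set how much active hormone the cell holds: the type 2 enzyme turns it into an inert 11-keto form, and the type 1 enzyme turns that form back. In mast cells glucocorticoids are known for curbing cytokine production and mediator release.

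The sequences printed here are the Hsd11b2 probe, the Per1 probe that parts from the other Per1 probe, and a stretch before a start site of Sgk1. No array value rests on the Sgk1 stretch, which was only searched for a motif. The Hsd11b2 probe lies at chr8:108046785-108047002 on the plus strand (mouse build mm9, per the array annotation). Its 60 bases cover a span of 218 genomic bases, so 158 bases of the span are absent from the probe and it crosses a splice junction. The Per1 probe lies at chr11:68919895-68919954 on the plus strand (mm9), and the annotation ties it to a cDNA clone and names no RefSeq transcript for it. The Sgk1 stretch, at chr10:21993640-21993889 on the plus strand (RefSeq, GRCm38.p6), is the 250 bases before a start site. In it, capitals mark the only full match to the perfect palindrome searched as the glucocorticoid response element.
Hsd11b2 probe: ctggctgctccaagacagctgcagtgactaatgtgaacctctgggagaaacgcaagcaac
Per1 probe of the clone: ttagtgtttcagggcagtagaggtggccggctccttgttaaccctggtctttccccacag
Sgk1 stretch: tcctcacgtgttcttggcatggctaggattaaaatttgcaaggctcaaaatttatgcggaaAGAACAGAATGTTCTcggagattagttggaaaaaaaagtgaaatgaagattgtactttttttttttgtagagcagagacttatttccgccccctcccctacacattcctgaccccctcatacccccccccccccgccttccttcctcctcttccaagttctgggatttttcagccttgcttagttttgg

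Hsd11b2, the inactivating enzyme, was the member that differed most. Its processed signal, in scanner units after background subtraction, was 53.9 ± 6.0 on the GATA1 siRNA array and 223 ± 23 on the control siRNA array (the scanner software's error for a spot). The spot was thus dim after GATA1 siRNA and moderately bright in the control, with local backgrounds of 18 on both arrays under raw means of 80.4 and 254. Relative to each array's 75th percentile of signal, the level was 0.158 in GATA1 siRNA cells and 0.736 in control siRNA cells, a log2 difference (GATA1 siRNA minus control siRNA) of -2.22 with a software error of 0.22, or 4.65-fold lower. It was the 11th lowest of the 20399 genes measured on both arrays, of which 0.608% were at least 2-fold lower. With 1 array per group, no difference here has a replicate check and no p-value is given. Fewer cells that carry a transcript and less of it per cell cannot be told apart in RNA of bulk cells.

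Several measurements bear on the spot itself. The probe has 1 spot per array and no second probe, and its pixel coefficients of variation were 0.305 and 0.221. The software flagged it as an outlier on neither array. Around it, the 119 measured spots within 10 rows and 5 columns had a median difference of 0.02. Of the non-control spots within 2 rows and 1 column, none that was well above background on an array differed 4-fold. With another background correction (normexp, which adds an offset of 50, close to the dim signal itself) the difference was -1.45, still past 2-fold.

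The probes measured near Hsd11b2 differed far less than its own probe. Within 100 kb the array holds 13 other probes, of which 6 were measured, and their differences ran from -0.36 to 0.12. The dimmest of the 6, at a locus without a gene name, had 15.2 in GATA1 siRNA cells and 16.3 in control siRNA cells. The nearest, 1776 bases away and named for its place, belongs to Atp6v0d1, a subunit of the vacuolar proton pump, with signals of 8803 in GATA1 siRNA cells and 7362 in control siRNA cells and a difference of 0.09. Lrrc36, which encodes a leucine-rich repeat protein and was named after its value was seen, had the lowest value of the 6 (391 against 448 in control siRNA cells).

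Gata1, the siRNA target, had a signal of 3930 in GATA1 siRNA cells and 16415 in control siRNA cells, a difference of -2.23 on its single probe. Among named genes in the upper 3 quartiles of level, the 3 whose differences were nearest to that of Hsd11b2 over the 2 arrays were Gata1, the tryptase gene Tpsab1 (-2.11) and the olfactory receptor gene Olfr224 (-1.76). Tpsab1 had signals of 162 in GATA1 siRNA cells and 623 in control siRNA cells, and Olfr224 had 54.5 and 165. The 3 are near in size only, since 2 arrays hold no pattern beyond a single difference.

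**Figure D1:**
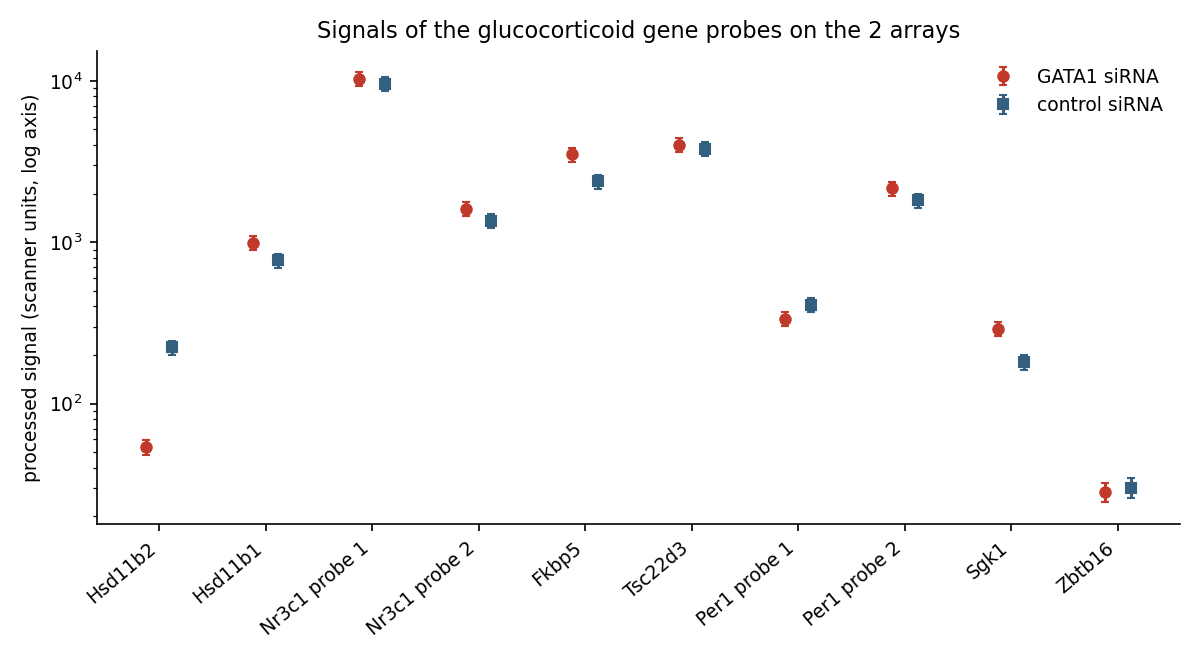
Processed signal (scanner units, log axis) of each probe of the 8 genes, with GATA1 siRNA as circles and control siRNA as squares; bars are the scanner software's error for a spot (for Hsd11b1, its mean over 10 spots). Hsd11b2 stands at 53.9 with GATA1 siRNA and 223 with control siRNA, whereas the signals of each other probe lie close together. Nr3c1 probe 1 is the brighter one, and Per1 probe 1 is that of the cDNA clone.

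Hsd11b1, the reactivating enzyme, was slightly higher after GATA1 siRNA. Its probe, at chr1:195048169-195048228 on the minus strand (mm9), is printed 10 times on each array. The 10 spots gave 924 to 1049 (median 996) in GATA1 siRNA cells and 702 to 817 (median 778) in control siRNA cells. After scaling, the differences at the 10 positions ran from 0.09 to 0.31. These spots repeat a single hybridisation per group, and how many other probes with 10 spots part as clearly was not counted. The probe's difference was 0.20, or 1.15-fold, with an SD of 0.07 over the 10 spots, which covers the array and not the cells. The software error of that difference was also 0.20, as large as the difference. Of all measured genes, 32.4% differed by at least this much in either direction. Chosen after its value was seen, H6pd, the enzyme that supplies the cofactor for the reactivating reaction, had 1058 in GATA1 siRNA cells and 806 in control siRNA cells, a difference of 0.23.

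**Figure D2:**
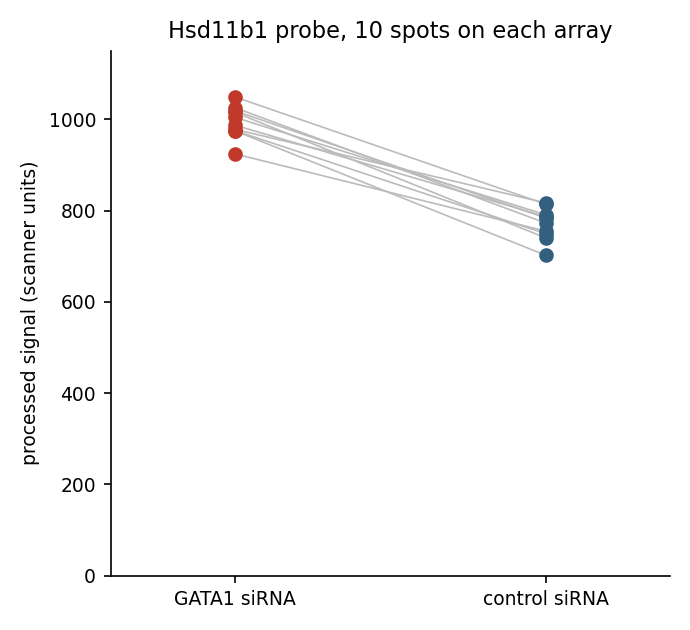
Processed signal (scanner units) of the 10 spots of the Hsd11b1 probe on the GATA1 siRNA array (left) and the control siRNA array (right); lines join spots at the same position. They lie between 924 and 1049 on the left and between 702 and 817 on the right, before division by the arrays' 75th percentiles (340 and 303).

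The receptor gene Nr3c1 was nearly level. Its brighter probe gave 10264 in GATA1 siRNA cells and 9566 in control siRNA cells, and the other gave 1609 and 1352. The software error of a difference was 0.20 for the bright probes of Nr3c1, Fkbp5 and Tsc22d3 alike, and is not a spread measured for each. After scaling, the Nr3c1 probes differed by -0.06 and 0.09, each within this error. Their mean was 0.01, and its sign depends on the scaling and the probe: it was -0.024 with quantiles, -0.037 with loess and -0.064 when only the brighter probe was read.

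The 5 responders, genes that the receptor is known to induce, had values of both signs. Fkbp5 and Sgk1 were higher after GATA1 siRNA, and Tsc22d3 and Zbtb16 were slightly lower. The probes of Per1 had opposite signs. None of the 5 reached 2-fold in either direction, as 0.902% of all measured genes did. None reached 1.5-fold, which 2.76% of all genes passed as lower and 1.83% as higher (4.59% either way). By sign, 2 were above 0 and 3 below, beside 52.7% of all genes above 0 and 47.3% below. Per1 counts as below by the mean of its probes. The median of the 5 was -0.09, beside 0.01 over all measured genes, and it turned to 0.085 when the brighter Per1 probe stood for that gene. Whether any responder moves with Hsd11b2 was not tested, since 2 arrays give each gene a single difference.

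Sgk1, a kinase that regulates ion channels and cell survival, had the highest value among the 8 genes. Its signal was 292 ± 29 in GATA1 siRNA cells and 181 ± 18 in control siRNA cells. The difference was 0.52 with a software error of 0.21, or 1.44-fold. Of all measured genes 6.11% differed by at least as much, and the alternatives put Sgk1 between 0.36 and 0.59, the last with the authors' scaling, where it passes 1.5-fold. Its probe lies at chr10:21719507-21719566 on the plus strand (mm9).

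Fkbp5, a cochaperone that lowers the receptor's affinity for hormone in a feedback loop, was bright on both arrays. Its probe, at chr17:28536060-28536119 on the minus strand (mm9), gave 3499 ± 350 in GATA1 siRNA cells and 2381 ± 238 in control siRNA cells. The difference was 0.39 with a software error of 0.20, or 1.31-fold. Across the alternatives it stayed between 0.34 and 0.45, and 12% of all measured genes differed by at least as much.

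Tsc22d3, which encodes the leucine zipper protein GILZ, a classic target of the receptor with anti-inflammatory action, was bright and close to level. Its probe, at chrX:137074094-137074153 on the minus strand (mm9), gave 4004 in GATA1 siRNA cells and 3798 in control siRNA cells. Although the raw signal was higher with GATA1 siRNA, division by the 75th percentiles of 340 and 303 put the difference at -0.09, within its software error of 0.20. The alternatives kept it below 0, from -0.14 to -0.03.

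Per1, a component of the circadian clock that glucocorticoids induce, gave values that part by probe. The probe tied to RefSeq, at chr11:68923364-68923423 on the plus strand (mm9), had 2157 in GATA1 siRNA cells and 1814 in control siRNA cells, a difference of 0.08. The clone probe printed above had 336 and 408, a difference of -0.44 with a software error of 0.20. The gap of 0.53 between them was matched or exceeded in 7.85% of the 3950 genes with 2 measured probes. The mean of both was -0.18, so the sign of the gene depends on which probe is read. Whether the clone probe lies in an intron was not checked.

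Zbtb16, a zinc finger repressor also called PLZF and strongly induced by glucocorticoids in many cell types, was near the lower limit of the array. Its probe, at chr9:48462419-48462478 on the minus strand (mm9), gave 28.3 ± 3.9 in GATA1 siRNA cells and 30.2 ± 4.3 in control siRNA cells. The signals overlap within these errors, and the difference of -0.26 is smaller than its software error of 0.29.

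**Figure D3:**
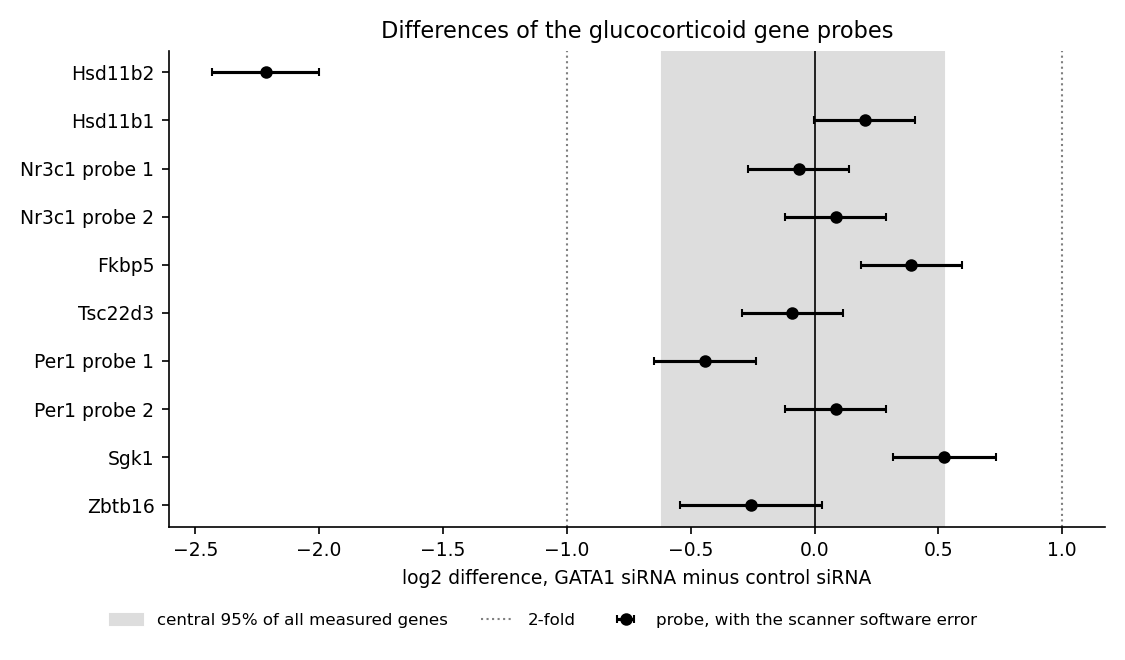
Log2 difference, GATA1 siRNA minus control siRNA, of each probe of the 8 genes; bars are the scanner software's error of the difference, the grey band holds the central 95% of all measured genes (-0.62 to 0.52) and dotted lines mark 2-fold. Only Hsd11b2, at -2.22, lies past a dotted line, and Sgk1 lies at the upper edge of the band.

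**Figure D4:**
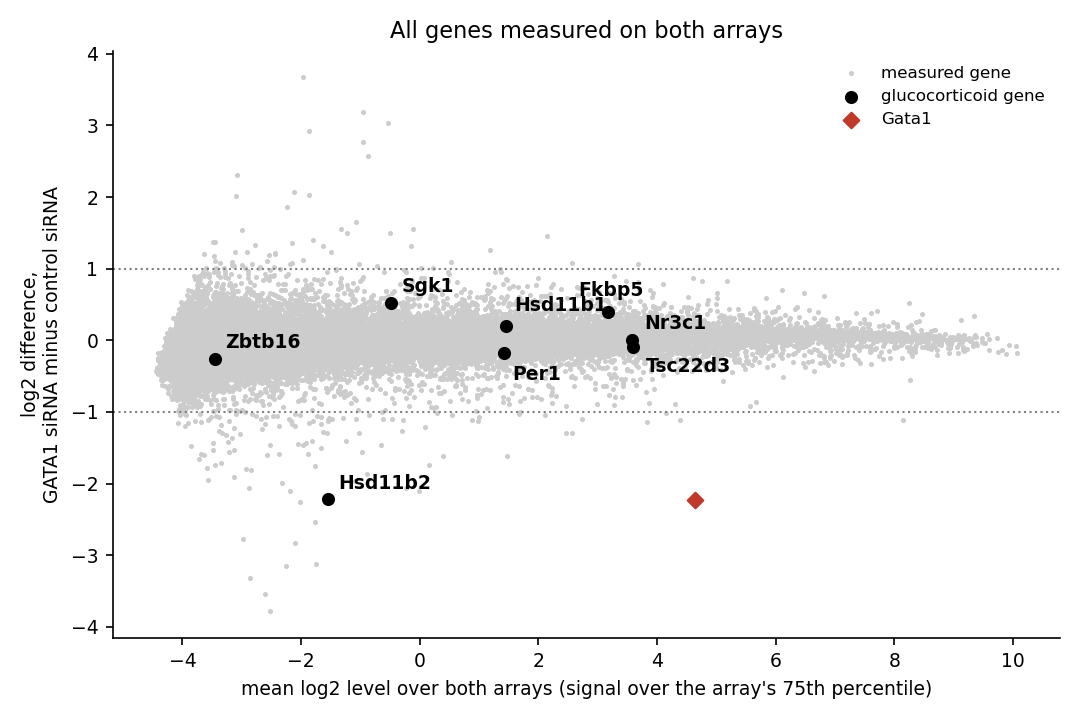
Log2 difference against mean log2 level (signal over the array's 75th percentile, mean of both arrays) for the 20399 measured genes (grey), the 8 glucocorticoid genes (black) and Gata1 (red diamond); dotted lines mark 2-fold. Hsd11b2 stands below the lower dotted line, and the other 7 glucocorticoid genes lie between the dotted lines.

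The promoter windows of RefSeq (GRCm38.p6, 250 bases before to 50 after a start) hold entries for 5 of the 8 genes: 6 windows for Sgk1, 3 for Tsc22d3, 2 for Per1 and 1 each for Fkbp5 and Hsd11b1. Hsd11b2, Nr3c1 and Zbtb16 are named only. The full palindrome searched was AGAACA, any 3 bases and TGTTCT. On both strands, it occurs in 3 of 32851 windows (0.00913%), and the Sgk1 stretch printed above is one of the 3, with the match from -189 to -175 relative to the start. Its single arm AGAACA, which overlaps every full match, occurs in 19% of all windows. Among the 5 genes it was found before start sites of Sgk1 and Tsc22d3. These are matches of letters, and the Sgk1 probe does not tell apart the transcripts from the different start sites. Imperfect palindromes and sequence outside the windows were not searched.

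Beyond the 8 genes, 31 enzymes and transporters of steroids were listed and 21 were measured. Of these, 14 were above 0 and 7 below (66.7% above, beside 52.7% of all measured genes), with a median of 0.06 beside 0.01. None reached 2-fold, as 0.902% of all genes did, and 2 were at least 1.5-fold higher, as 1.83% of all genes were. Those with the largest differences were Srd5a1, a steroid 5-alpha-reductase (37.5 in GATA1 siRNA cells and 19.5 in control siRNA cells, difference 0.78), Akr1c18, a 20-alpha-hydroxysteroid dehydrogenase (6353 and 3494, difference 0.70), and Abcb1a, an efflux pump that exports glucocorticoids (677 and 445, difference 0.44). Srd5a1 was dim, with a software error of 0.32. Chosen after its value was seen, Cyp11a1, which makes the first cut in steroid synthesis, was bright on both arrays (50928 and 46342), with a difference of -0.03.

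The mineralocorticoid receptor gene Nr3c2 was not measured on both arrays, and the 18 measured genes for receptor chaperones and partners lay close together. Their median was 0.07, with 15 above 0 and 3 below, beside 52.7% of all measured genes above 0. None reached 1.5-fold, as 4.59% of all genes did. Hdac6, a deacetylase of the chaperone HSP90, stood highest at 0.54, with its probes at 0.59 and 0.50. Ppp5c, a phosphatase bound to the receptor complex, differed by 0.23, and Ptges3, the cochaperone p23, by 0.22 over 4 probes. Of the 18 coregulators 9 were above 0 and 9 below, with a median of 0.00274. Ncoa1, the coactivator SRC-1, was the highest at 0.66 over 3 probes (0.32 to 0.87), followed by Nrip1 at 0.27 and Ehmt2 at 0.22. The Ncoa1 probes had mean signals of only 112 in GATA1 siRNA cells and 59.1 in control siRNA cells. Ncoa1 was the 1 coregulator at least 1.5-fold higher, as 1.83% of all genes were.

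Of 40 other genes that glucocorticoids induce, 35 were measured, 23 above 0 and 12 below. That is 65.7% above 0, beside 52.7% of all measured genes, and the median was 0.19 beside 0.01 over all genes. Il1r2, the decoy receptor for interleukin 1, was the one gene past 2-fold (2484 in GATA1 siRNA cells and 809 in control siRNA cells, difference 1.45), where 0.294% of all genes were at least 2-fold higher. Per2, the partner of Per1 in the clock, stood at -0.97 (30.4 and 53.3) and Bcl6, a transcriptional repressor, at 0.81 (695 and 353). Both Il1r2 and Per2 rest on 1 spot with at least 2 nearby spots that differ 4-fold, and without such spots no gene of the list was measured past 2-fold and its median was 0.20. Chosen after their values were seen, 3 textbook targets of the receptor stood at 0.34 (Nfkbia, the NF-kappa-B inhibitor), 0.19 (Dusp1, a phosphatase of MAP kinases) and -0.05 (Klf9, a zinc finger factor).

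Of 14 genes that glucocorticoids repress, 13 were measured, 6 above 0 and 7 below, a split close to that of all genes (47.3% below 0). Their median was -0.06 beside 0.01 over all genes, and none passed 2-fold, beside 0.902% of all genes. The lowest were the type 2 cytokine genes Il5 at -0.82 (21.0 in GATA1 siRNA cells and 33.1 in control siRNA cells, software error 0.32), Il4 at -0.52 (1227 and 1569) and Il13 at -0.51 (368 and 466). The highest of the 13 was at 0.45.

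**Figure D5:**
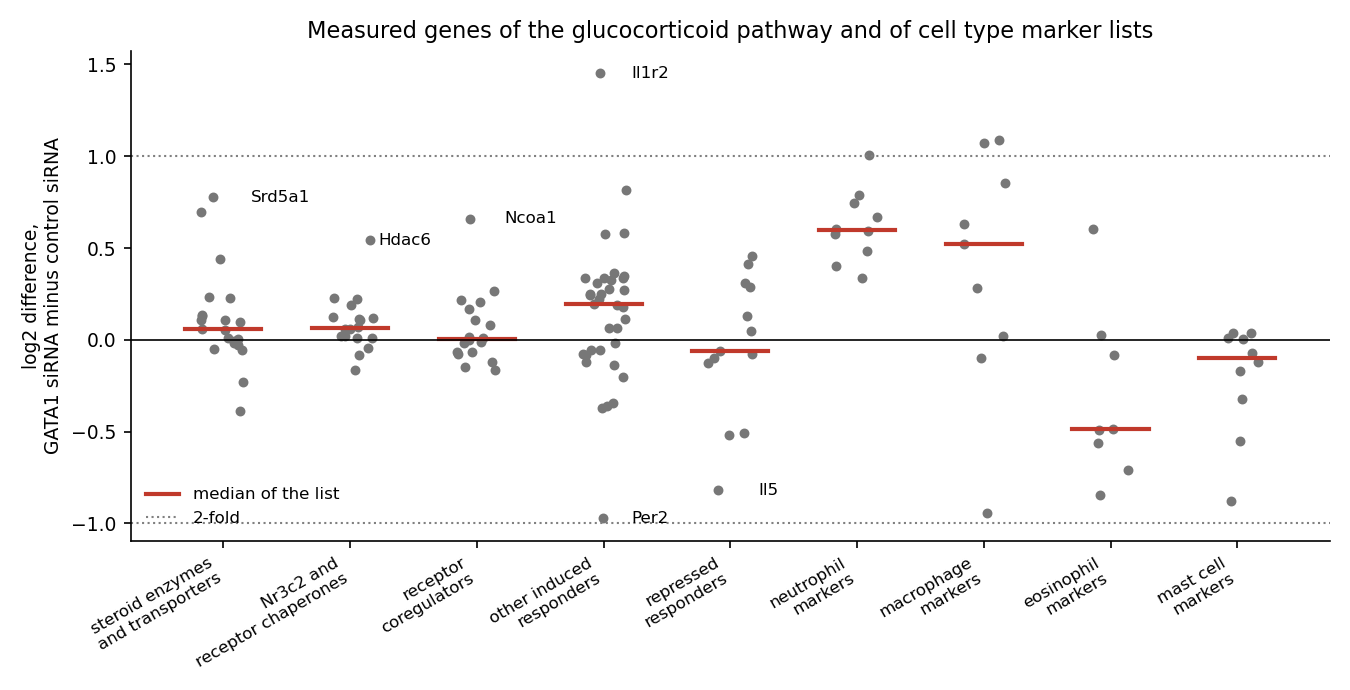
Log2 difference, GATA1 siRNA minus control siRNA, of each measured gene (grey points) in the lists of the glucocorticoid pathway and of cell type markers; red lines are the medians of the lists and dotted lines mark 2-fold. The other induced responders have a median of 0.19, neutrophil markers one of 0.60 and eosinophil markers one of -0.49.

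Markers of other blood cells also differed between the arrays. All 10 measured of 12 neutrophil markers were higher after GATA1 siRNA, beside 52.7% of all measured genes above 0. The largest were Itgb2l (1.01), Ltf (0.79) and Ngp (0.75), where 0.294% of all genes were at least 2-fold higher. Itgb2l was dim (62.2 in GATA1 siRNA cells and 27.6 in control siRNA cells, software error 0.27). The summed level of the 10 (signal over the 75th percentile) was 119 in GATA1 siRNA cells and 80.0 in control siRNA cells. Of 12 macrophage markers 9 were measured and 7 were higher, with summed levels of 23.3 and 14.9, with Ms4a7 at 1.09 and Cd68 at 1.07 against Cx3cr1 at -0.94. Of 8 eosinophil markers 6 were lower, beside 47.3% of all measured genes below 0. Their sums were 25.1 in GATA1 siRNA cells and 33.5 in control siRNA cells, with Epx at -0.85 and Prg3 at -0.71 against Siglecf at 0.60. Siglecf was dim (32.2 and 18.9, software error 0.35). Mast cell markers, all 10 measured, had sums of 2330 and 2544 and a median of -0.10, with 4 above 0 and 6 below. Those with the largest differences were Mcpt4 at -0.88, Tpsb2 at -0.55 and Il1rl1 at -0.32, and the highest of the 10 was at 0.036. Stromal markers were near background, with 4 of 7 measured, sums of 0.492 and 0.551, Col1a1, Col3a1 and Dcn not measured, and Timp3 at -0.61, Pdgfrb at 0.39 and Sparc at -0.09. Lcn2 and Mertk stand both among these markers and among the induced responders. The part of other cells in the values of Hsd11b2, Il1r2 and the responders was not tested.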

How the data were processed

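Cy3-labelled cRNA made from total RNA was hybridised to 2 arrays, 1 per siRNA, and groups follow the transfection label. Values are spot intensity, which the authors read with Feature Extraction software of Agilent (version 10.7.3.1), background-subtracted and detrended per the file headers, with no scaling between arrays. The deposited normalized intensity equals that signal divided by each array's median of non-control spots (23.6 for GATA1 siRNA and 21.9 for control siRNA), found by matching values, and served as an alternative.

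Control spots and outlier spots (133 and 117) were left out, repeated spots were averaged as log2 values, and each array was divided by its 75th percentile over probes (340 and 303). Probes well above background on both arrays were measured (55.2% and 52.7% of probes passed on each), and no spot was saturated. A gene is the mean of its measured probes. Names came from a RefSeq table (GRCm38.p6) by accession (27235 probes) or symbol (4146), and 24300 kept the array's name. The functions were tested on simulated data.

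No test across arrays was possible, so a 2-fold rule was used, and having 1 array per group limits the precision. For 245 measured probes with 10 spots each, the SD of the log2 difference over spots had a median of 0.058, and of 0.20 for the 51 with signals under 100. The software error of a difference is not such an SD, and was nearly the same for bright probes of different genes. Members, lists and rules were chosen with earlier results of these data known. Genes named are the members, Gata1, those past 2-fold or the 3 largest of each list, and the 3 nearest to Hsd11b2. Outside this rule, H6pd, Cyp11a1, Nfkbia, Dusp1, Klf9 and Lrrc36 were chosen after their values were seen, and Atp6v0d1 for its place beside Hsd11b2. Alternatives (limma 3.58.1, R 4.3.3; Python 3.11.15) are given at the end.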

Additional observations from a re-analysis of the deposited data

How the results depend on the processing

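Hsd11b2 stayed at least 2-fold lower under all 10 alternatives, between -2.22 and -1.45, the last with the normexp background correction, whose offset of 50 compresses dim signals by construction. The count of responders at least 2-fold lower was 0 in each of them and with a 1.5-fold rule. The median of the 5 responders reversed to 0.085 with the brightest probe of a gene and to 0.15 with signals of 50 or more on both arrays, which leaves out Zbtb16, and it moved to -0.028 in the authors' table. In that table the median of the other induced responders was 0.26 and that of the receptor chaperones 0.13, beside 0.073 over all genes. The median of the receptor chaperones was 0.035 with loess and 0.043 with quantiles. With normexp the median of the other induced responders was 0.13. Nr3c1 reversed to -0.064 with the brightest probe, -0.037 with loess and -0.024 with quantiles, and Per1 reversed to 0.085 with the brightest probe. The 2-fold rule gave 60 genes higher and 124 lower (32.6% higher), and 77 and 104 in the authors' table (42.5% higher), 78 and 111 with loess, 17 and 31 with normexp, 725 and 1124 with no filter on dim probes, 24 and 61 with brighter probes only, and 36 and 95 without marked spots. No paired analysis was possible because each group is 1 array. Dim signals limit Zbtb16 and, after GATA1 siRNA, Hsd11b2.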
